A study of Mus musculus with 12 samples.

Results

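Transcripts of IL-6 family receptors, and of the STAT3 pathway that these receptors switch on, were followed in skeletal muscle and brain of mice with cancer cachexia, a loss of muscle and fat seen with some tumours. The 10 genes, out of 55416 listed, were the receptor genes Il6ra, Il6st, Osmr, Lifr and Il4ra, the kinase genes Jak1 and Jak2, the transcription factor gene Stat3, the feedback inhibitor gene Socs3 and the kinase gene Pim1. No value entered the rule that names them, but the list was drawn up with earlier results of these data known. All 10 were matched to 1 gene identifier each, and all 10 passed the minimum count in both tissues.

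The tested mice, here called CT-26 mice, were male BALB/c mice given an injection of CT-26 cells, a colon carcinoma line derived from that strain, under the abdominal skin at an age of 7 weeks. The controls were healthy males of the same strain, also labelled as 7 weeks old, and no sham injection is described for them. By day 10 the CT-26 mice weighed 7 to 10% less than healthy mice, and their tissues were taken on day 25. The day of collection of the control tissues is not given in the labels. Gastrocnemius, a calf muscle, and hypothalamus, the brain region that sets appetite and energy use, were taken from each of 6 mice, so that each tissue had 3 libraries of CT-26 and 3 of control mice, 12 in 4 groups.

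IL-6, IL-11, LIF, oncostatin M, CNTF and cardiotrophin-1 signal through receptor complexes that share the chain gp130, the product of Il6st. IL-6 first binds the IL-6 receptor alpha chain (Il6ra), in the membrane or shed in soluble form, whereas LIF uses the chain encoded by Lifr and mouse oncostatin M mainly that encoded by Osmr. The kinases JAK1 and JAK2, bound to these chains, phosphorylate STAT3, which enters the nucleus and induces, among other genes, Socs3, whose product binds gp130 and the kinases and shuts the signal down. In muscle this pathway is known for its part in wasting, and in the hypothalamus STAT3 is known also as the factor downstream of the leptin receptor, with SOCS3 limiting both signals.

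In the mouse build GRCm38, with GENCODE M21 gene bounds, the receptor genes were Il6ra (ENSMUSG00000027947) at chr3:89864059-89913196 on the minus strand, Il6st (ENSMUSG00000021756) at chr13:112464070-112510086 on the plus strand, Osmr (ENSMUSG00000022146) at chr15:6813577-6874969 on the minus strand, Lifr (ENSMUSG00000054263) at chr15:7090614-7197489 on the plus strand and Il4ra (ENSMUSG00000030748) at chr7:125552120-125579474 on the plus strand. The kinase genes were Jak1 (ENSMUSG00000028530) at chr4:101152367-101265282 on the minus strand and Jak2 (ENSMUSG00000024789) at chr19:29251828-29313080 on the plus strand. The genes of STAT3 and of the proteins it induces were Stat3 (ENSMUSG00000004040) at chr11:100885098-100939540 on the minus strand, Socs3 (ENSMUSG00000053113) at chr11:117966079-117970047 on the minus strand and Pim1 (ENSMUSG00000024014) at chr17:29490753-29496112 on the plus strand.

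The stretch before the start of Socs3 is shown because it alone among the members held the palindromic STAT motif TTCNNNGAA, and that before Il6ra because this gene had the highest fold change of the 10 and lacked the motif. Both are the 250 bases before the RefSeq transcript start in GRCm38.p6, read on the minus strand, which is the strand of both genes. Socs3 lies at chr11:117969367-117969616 and Il6ra at chr3:89913197-89913446, and capitals mark the motif.
Socs3: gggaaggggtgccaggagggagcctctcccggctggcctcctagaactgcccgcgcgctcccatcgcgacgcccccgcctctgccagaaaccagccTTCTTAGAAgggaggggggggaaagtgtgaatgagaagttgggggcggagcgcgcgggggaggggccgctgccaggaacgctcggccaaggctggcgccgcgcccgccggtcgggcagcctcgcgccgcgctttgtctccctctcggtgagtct
Il6ra: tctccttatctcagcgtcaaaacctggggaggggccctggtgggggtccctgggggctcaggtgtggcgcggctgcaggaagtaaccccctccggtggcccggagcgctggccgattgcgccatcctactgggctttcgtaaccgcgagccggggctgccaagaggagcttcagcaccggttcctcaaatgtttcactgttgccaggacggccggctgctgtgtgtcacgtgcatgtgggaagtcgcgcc
The match in Socs3, TTCTTAGAA, covered the bases 154 to 146 before the start. The last bases printed for Socs3 also hold the first exon of a noncoding Socs3 transcript that starts further upstream. RefSeq promoters were at hand for all 10 members, 12 starts in all, and TTCNNNGAA was found at 1 member. TTCNNNNGAA, with a spacer 1 base longer, was found at 0 members. Both motifs read the same on either strand, and windows of the same length held them at 7.02% and 5.85% of 32851 RefSeq starts. A match of letters is a description and does not show that STAT3 binds there.

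Library totals ran from 26015741 to 52535761 expected counts. The tissues carried their own markers: 10 genes of muscle fibres summed to between 76090 and 120000 transcripts in 1000000 (TPM, a length-corrected unit) in gastrocnemius libraries and to at most 51.7 TPM in hypothalamus libraries. Neuropeptide genes of the hypothalamus summed to between 3708 and 7160 TPM there and to at most 4.33 TPM in muscle. Neutrophil markers moved with the groups in both tissues. In the gastrocnemius their sum was 557.5, 82.0 and 73.6 TPM in CT-26 mice 1, 2 and 3 and between 1.00 and 1.43 TPM in controls, and in the hypothalamus it was 289.4, 86.8 and 27.6 TPM in CT-26 mice 1, 2 and 3 and between 4.43 and 4.91 TPM in controls. Of 13 neutrophil markers listed, 8 passed the minimum count in muscle and all 8 rose, and 9 passed in the hypothalamus, of which 6 rose. A marker at or near 0 in controls, such as Cxcr2 in the hypothalamus, could pass only through the CT-26 libraries. For such a marker the direction was set by the filter, so these counts add no support beyond the sums. The defining genes Camp, Ltf, Ly6g and Elane were at 0 in all control muscle libraries, and Ly6g and Cxcr2 in all control hypothalamus libraries.

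In the gastrocnemius of CT-26 mice the receptor chains for IL-6 and oncostatin M, gp130, STAT3 and SOCS3 rose at the transcript level, while the LIF receptor chain and both kinases fell. Of the 10 members, 6 rose and 3 fell at an adjusted p below 0.05, and Pim1 did not pass. Of all 14265 genes tested in this muscle, 19.6% rose and 18.3% fell. Mitochondrially encoded transcripts also set the muscle groups apart, at 8.26, 10.05 and 11.1% of counts in CT-26 and 15.23, 13.51 and 19.66% in control mice 1, 2 and 3, and their part in the changes was not tested. The median log2 fold change of the 10 members was 1.10, that of all genes tested -0.0015. Values in the next paragraphs are counts in 1000000 (CPM) after TMM normalisation, edgeR's scaling of library sizes. They are given for mice 1, 2 and 3 of each group. In CPM all 10 members had CT-26 and control values that did not overlap, which was also so for 51.7% of all genes tested. In TPM the groups of Lifr, Jak1 and Jak2 overlapped. A log2 fold change sets CT-26 over control mice and is given with its standard error, and p-values are from edgeR's quasi-likelihood test with Benjamini-Hochberg adjustment over all genes.

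Il6ra, the gene of the IL-6 binding chain, was read at 72.6, 37.9 and 55.1 CPM in CT-26 muscle, against 3.98, 5.64 and 5.94 CPM in control muscle. The lowest CT-26 mouse was far above the highest control, and the CT-26 mice differed among themselves, with mouse 1 highest and mouse 2 lowest. Il6ra rose by 3.41 ± 0.27 on the log2 scale, or 10.65-fold (adjusted p = 0.0001975). The tissue was sequenced in bulk, so that more cells of a type that expresses a gene and more RNA per cell cannot be told apart, for Il6ra and every other gene here. CT-26 mouse 1 also had the highest sum of neutrophil markers, and without it the log2 change of Il6ra was 3.17. The sums of CT-26 mice 2 and 3, at 82.0 and 73.6 TPM, were still far above the control maximum of 1.43 TPM. Leaving out mouse 1 therefore cannot show the part of neutrophils in the change, which was not tested.

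Il6st, which encodes the shared chain gp130, was at 226.4, 199.0 and 177.5 CPM in CT-26 muscle and at 117.7, 122.9 and 118.1 CPM in control muscle. The controls lay within a few CPM of each other, and every CT-26 mouse was above them. The rise was 0.75 ± 0.13 on the log2 scale, or 1.68-fold (adjusted p = 0.003415). Osmr, the oncostatin M chain, was at 18.7, 19.9 and 20.4 CPM in CT-26 muscle and at 6.32, 6.93 and 7.93 CPM in control muscle. It had narrow, separate groups and rose by 1.48 ± 0.13 on the log2 scale, or 2.79-fold (adjusted p = 0.0002835). Il4ra, the chain shared by the receptors for IL-4 and IL-13, which signal mainly through STAT6, was at 17.4, 11.3 and 16.8 CPM in CT-26 muscle and at 4.67, 5.28 and 5.22 CPM in control muscle. CT-26 mouse 2 was the lowest of its group but above every control. Il4ra rose by 1.59 ± 0.19 on the log2 scale, or 3.00-fold (adjusted p = 0.0007087), and by 1.48 without CT-26 mouse 1. Macrophage markers summed to 154.7, 46.7 and 163.9 TPM in CT-26 mice 1, 2 and 3 and to 43.1 to 56.6 TPM in control muscle, so that CT-26 mouse 2 was the lowest of its group in this sum too, and there within the range of the controls. CT-26 mouse 2 was also the lowest of its group for Il6ra and Stat3. Of the 10 macrophage markers tested in muscle 2 rose (Itgam and Lyz2) and 0 fell, beside 19.6% and 18.3% of all genes tested. The number that rose was near the share over all genes, and the part of macrophages in the change was not tested.

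Lifr, the LIF chain, went the other way, with 34.6, 39.3 and 37.3 CPM in CT-26 muscle against 56.3, 58.4 and 71.5 CPM in control muscle. The groups did not overlap, and control mouse 3 was the highest. Its log2 fold change was -0.74 ± 0.13, that is 1.68-fold lower (adjusted p = 0.003536). This call depended on the scaling: with library totals in place of TMM it held (log2 -0.54, adjusted p = 0.01034), and on log2(TPM + 0.5) it did not (log2 -0.22, adjusted p = 0.4111). The median of all genes in muscle was 0.20 with library totals and 0.28 with TPM, and relative to it Lifr was at -0.74 and -0.50. Of all genes called, TMM gave 51.7% as higher, library totals gave 70.4% and TPM gave 81.5%. Markers of fibroblasts, which also express cytokine receptors, fell in the same muscle for 7 of 8 genes, with a sum of 259.0 to 284.4 TPM in CT-26 and 332.2 to 523.3 TPM in control mice, and 0 rose. Of 10 endothelial markers 3 rose and 2 fell, with a median log2 change of 0.09 and a sum of 91.6 to 114.9 TPM in CT-26 and 65.5 to 71.1 TPM in control mice. Of all genes tested in muscle 19.6% rose and 18.3% fell. The part of fibroblasts and endothelial cells in the receptor changes was not tested.

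**Figure D1:**
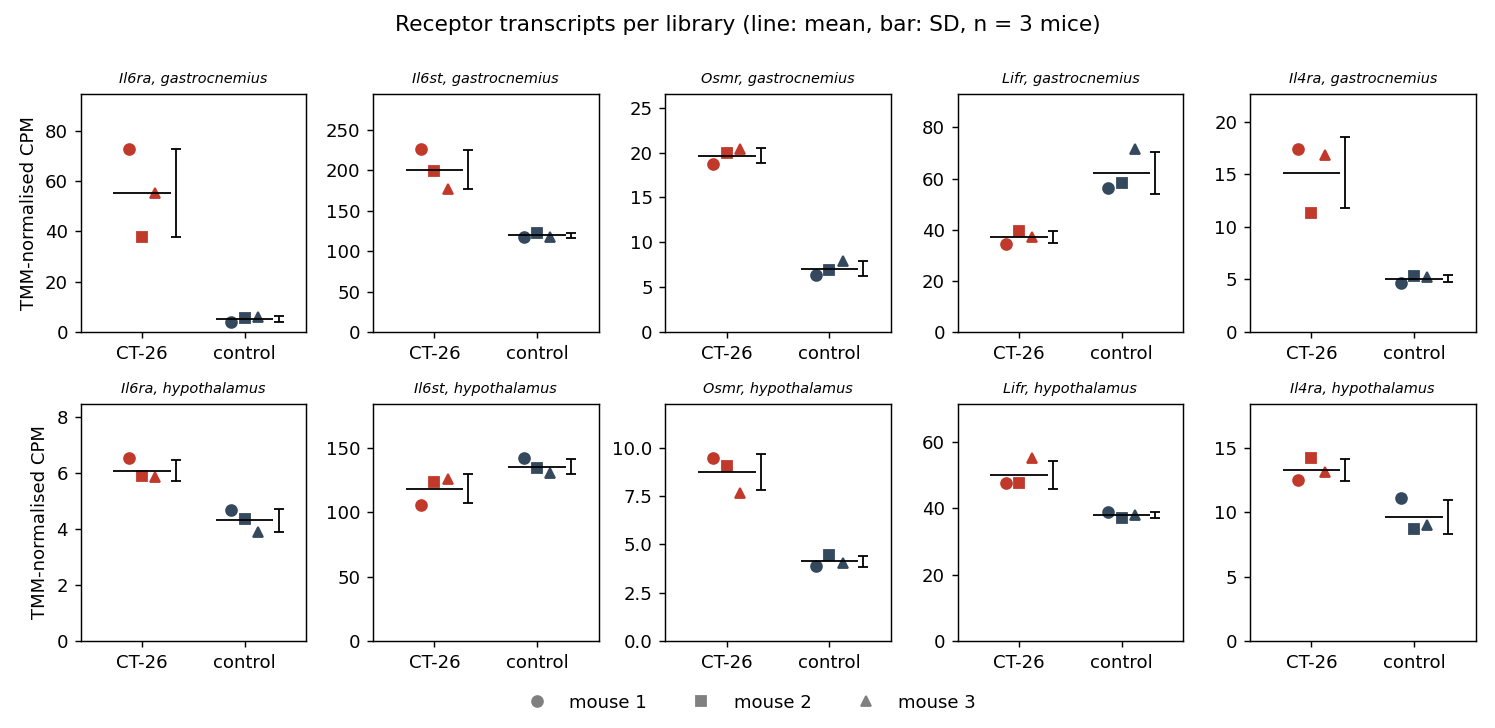
TMM-normalised CPM of the 5 receptor genes per library, in the gastrocnemius (top row) and the hypothalamus (bottom row), with CT-26 mice left and control mice right; the line is the mean, the bar the SD of 3 mice, and marker shapes give the mouse number. Il6ra reached 37.9 CPM or more in every CT-26 muscle and stayed at 5.94 CPM or less in every control muscle, and Lifr was lower in CT-26 muscle and higher in CT-26 hypothalamus.

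Jak1 and Jak2, the kinases that carry the signal from gp130, were modestly lower. Jak1 was at 109.2, 125.5 and 84.6 CPM in CT-26 muscle and at 151.9, 161.7 and 163.5 CPM in control muscle (log2 -0.58 ± 0.16, adjusted p = 0.02161). Jak2 was at 37.4, 43.0 and 34.2 CPM in CT-26 muscle and at 51.8, 50.3 and 54.2 CPM in control muscle (log2 -0.45 ± 0.12, adjusted p = 0.02161). All CT-26 values lay below all control values, but neither call was firm. With library totals Jak1 was at -0.39 (adjusted p = 0.06578) and Jak2 at -0.26 (adjusted p = 0.1453), and with TPM they were at -0.23 (adjusted p = 0.3937) and -0.07 (adjusted p = 0.7879). Relative to the median of all genes, Jak1 was at -0.59 with library totals and -0.51 with TPM, and Jak2 at -0.46 and -0.36. Both calls were also lost without CT-26 mouse 1 or any 1 of the 3 controls, at adjusted p between 0.05389 and 0.06993.

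Stat3, which encodes the transcription factor at the end of the pathway, had 135.3, 112.7 and 140.8 CPM in CT-26 muscle and 51.8, 66.9 and 50.9 CPM in control muscle. The groups were well apart, with control mouse 2 the highest control and CT-26 mouse 2 the lowest CT-26 value. Stat3 rose by 1.20 ± 0.16 on the log2 scale, or 2.29-fold (adjusted p = 0.0009924). Socs3, the feedback inhibitor, had 16.0, 16.2 and 30.0 CPM in CT-26 muscle and 3.69, 4.03 and 1.92 CPM in control muscle. CT-26 mouse 3 stood above the other CT-26 mice and control mouse 3 below the other controls. Socs3 rose by 2.69 ± 0.34 on the log2 scale, or 6.45-fold (adjusted p = 0.0008716), second to Il6ra among the members, and its log2 change was 2.85 without CT-26 mouse 1. Pim1, a serine/threonine kinase induced by STAT factors, had 26.3, 25.6 and 21.9 CPM in CT-26 muscle and 7.01, 21.3 and 8.25 CPM in control muscle. Control mouse 2 lay just under the lowest CT-26 mouse, away from the other controls. Pim1 did not pass the test (log2 1.01 ± 0.37, adjusted p = 0.06156), and without control mouse 2 it did (log2 1.68, adjusted p = 0.001924). It was also called with library totals, TPM, DESeq2, no filter on low counts, or a fit over all 12 libraries.

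**Figure D2:**
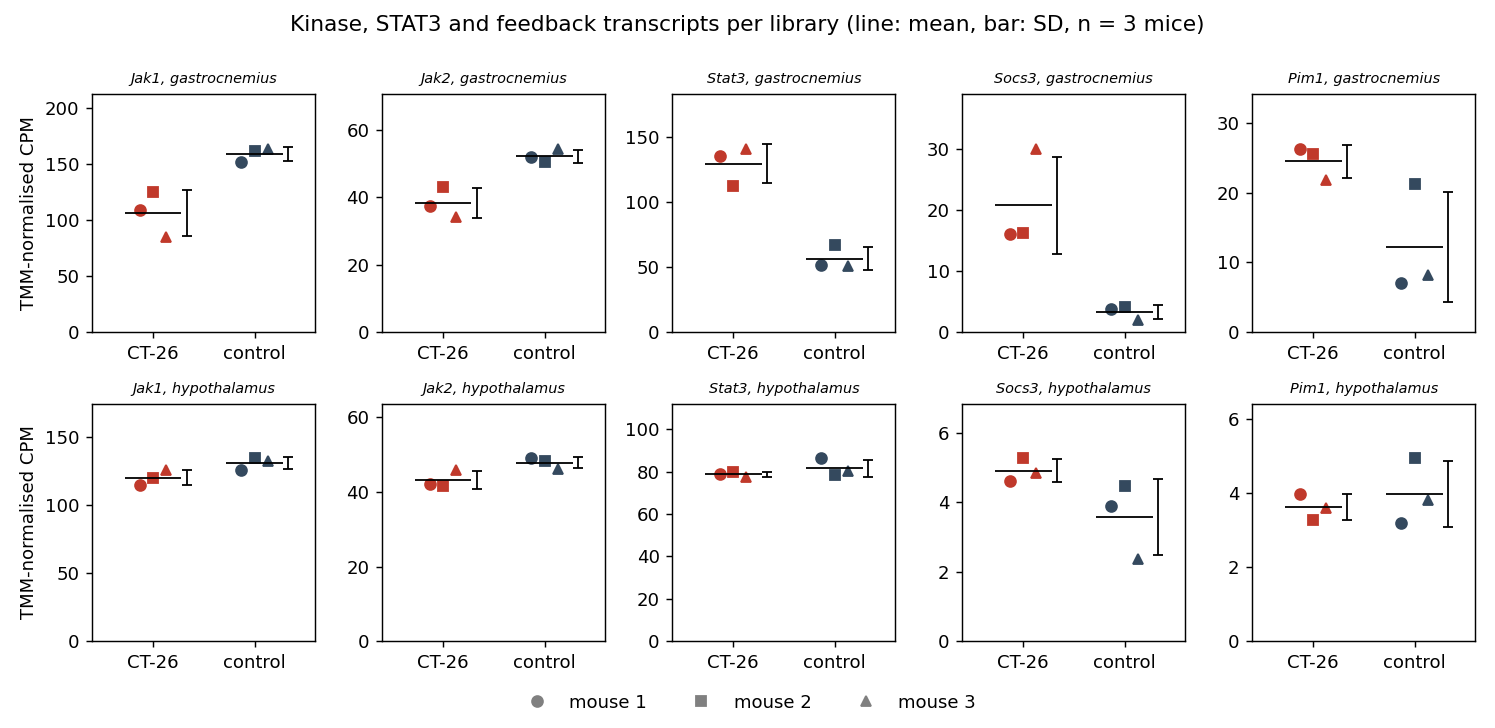
TMM-normalised CPM of the kinase, STAT3 and feedback genes per library, in the gastrocnemius (top row) and the hypothalamus (bottom row), with CT-26 mice left and control mice right; the line is the mean, the bar the SD of 3 mice, and marker shapes give the mouse number. Stat3 and Socs3 were higher in every CT-26 muscle than in any control muscle, and control mouse 2, at 21.3 CPM, widened the spread of Pim1.

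**Figure D3:**
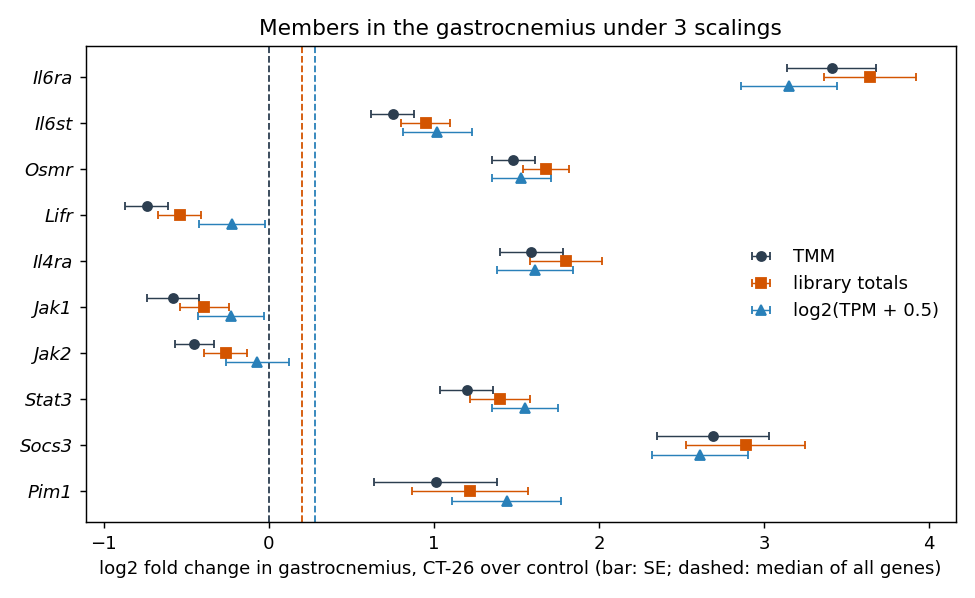
Log2 fold change in the gastrocnemius, CT-26 over control, of each member under TMM, library totals and log2(TPM + 0.5), with bars for the SE and dashed lines for the median of all genes under each scaling. The rises of Il6ra, Il6st, Osmr, Il4ra, Stat3 and Socs3 stayed above these medians by 0.74 or more. Lifr, Jak1 and Jak2 moved towards 0, Jak2 to -0.07 with TPM, but stayed below the medians. Relative to the TPM median Lifr was at -0.50, Jak1 at -0.51 and Jak2 at -0.36.

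Levels between genes were compared in TPM. In CT-26 muscle the order by mean was Stat3 (39.5 ± 7.33 TPM), Il6st (36.2 ± 9.91), Jak1 (27.0 ± 6.39), Pim1 (16.7 ± 3.79), Il6ra (12.6 ± 5.84), Socs3 (10.3 ± 3.27), Jak2 (9.51 ± 1.53), Lifr (5.36 ± 0.93), Il4ra (5.30 ± 1.45) and Osmr (4.85 ± 0.21), each as TPM ± SD with n = 3. Only Jak2 and Lifr, of the neighbours in that order, had ranges that did not overlap. In control muscle Jak1 led at 31.0 ± 1.84 TPM, and Il6ra was last at 0.88 ± 0.13 TPM (SD, n = 3), next to Socs3, Osmr and Il4ra, whose neighbouring ranges overlapped. Il6ra thus ranked 5 of the 10 in CT-26 muscle and last in control muscle.

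In the hypothalamus fewer members changed and by less. Of the 10 members, 4 rose (Osmr, Lifr, Il4ra and Il6ra) and 0 fell, while 3.94% of all 17961 genes tested there rose and 4.83% fell. By DESeq2 the counts were also 4 and 0, and Il6st, Jak1 and Jak2 were lower at an unadjusted p below 0.05 in edgeR's test. The median log2 fold change of the 10 members was 0.18, that of all genes tested -0.0032. The groups did not overlap for 8 of the 10 members, against 30.3% of all genes tested.

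Osmr had 9.45, 9.05 and 7.68 CPM in CT-26 hypothalamus and 3.90, 4.46 and 4.03 CPM in control hypothalamus. All CT-26 values were well above the controls. It rose by 1.07 ± 0.12 on the log2 scale, or 2.10-fold (adjusted p = 0.0009431). Osmr, Il4ra and Il6ra were the members called higher in both tissues. The call of Osmr held under every alternative run in both tissues, at adjusted p of at most 0.01316. Lifr, lower in the muscle, had 47.4, 47.6 and 54.9 CPM in CT-26 hypothalamus and 39.0, 37.0 and 37.8 CPM in control hypothalamus. Every CT-26 mouse was above every control, with mouse 3 the highest. Lifr rose by 0.40 ± 0.07 on the log2 scale, or 1.32-fold (adjusted p = 0.00681), a call lost only when the hypothalamus was fitted together with the muscle over all 12 libraries (adjusted p = 0.1095).

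Il4ra had 12.5, 14.2 and 13.1 CPM in CT-26 hypothalamus and 11.1, 8.72 and 9.0 CPM in control hypothalamus (log2 0.46 ± 0.11, adjusted p = 0.02555). Il6ra had 6.51, 5.88 and 5.83 CPM in CT-26 hypothalamus and 4.68, 4.34 and 3.89 CPM in control hypothalamus (log2 0.49 ± 0.12, adjusted p = 0.03419). Neither gene had groups that overlapped, but both changes were small and control mouse 1 was the highest control for both. Each call was lost with TPM, with the fit over all 12 libraries, and without any 1 hypothalamus library except that of control mouse 1, at adjusted p between 0.0573 and 0.4109 for Il6ra and between 0.05766 and 0.2246 for Il4ra. Macrophage markers summed to 67.7 to 84.0 TPM in CT-26 and 54.9 to 58.6 TPM in control hypothalamus, with 2 of 10 higher (Lyz2 and C1qa) and 0 lower. Endothelial markers summed to 47.9 to 60.4 TPM in CT-26 and 40.8 to 49.1 TPM in control hypothalamus, with 2 of 10 higher and 1 lower, and microglial markers to 87.3 to 124.6 TPM in CT-26 and 109.5 to 116.7 TPM in control hypothalamus. The part of these cells and of neutrophils in the receptor changes was not tested.

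The other members did not pass in the hypothalamus. Il6st had 105.5, 123.7 and 126.1 CPM in CT-26 hypothalamus and 141.9, 134.1 and 130.3 CPM in control hypothalamus (log2 -0.19 ± 0.07, adjusted p = 0.1093). Its groups did not overlap, though CT-26 mouse 3 came close to control mouse 3. Socs3 had 4.62, 5.26 and 4.84 CPM in CT-26 hypothalamus and 3.90, 4.46 and 2.36 CPM in control hypothalamus (log2 0.45 ± 0.20, adjusted p = 0.1929). Its CT-26 values were alike and control mouse 3 was low, as it was in muscle. Stat3 had 78.8, 79.8 and 77.4 CPM in CT-26 hypothalamus and 86.2, 78.5 and 80.1 CPM in control hypothalamus, and was at -0.05 ± 0.05 on the log2 scale (adjusted p = 0.5625). Stat3 and Pim1 were the members whose groups overlapped there. Pim1 had 3.97, 3.28 and 3.60 CPM in CT-26 hypothalamus and 3.19, 4.93 and 3.81 CPM in control hypothalamus (log2 -0.14 ± 0.17, adjusted p = 0.6611). The control spread of Pim1 came from mouse 2, as in muscle.

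Jak1 was at 114.8, 120.4 and 125.8 CPM in CT-26 and 126.3, 134.5 and 132.4 CPM in control hypothalamus (log2 -0.12 ± 0.05, adjusted p = 0.165). Jak2 was at 42.1, 41.5 and 46.0 CPM in CT-26 and 49.0, 48.2 and 46.1 CPM in control hypothalamus (log2 -0.14 ± 0.06, adjusted p = 0.1628). For both kinases the highest CT-26 value was just below the lowest control. In TPM the order of the members was steadier here than in muscle: Jak1, Stat3, Il6st, Jak2, Lifr and Il4ra were the first 6 in CT-26 and in control hypothalamus, and Il6ra was last in both, at 1.14 ± 0.03 TPM in CT-26 and 0.81 ± 0.03 TPM in control mice (SD, n = 3). Neighbours among the first 6 did not overlap in either group.

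The effect of the tumour was then compared between the tissues in 1 fit of all 12 libraries, as the gastrocnemius effect minus the hypothalamus effect. It differed for 6 of the 10 members, with 5 more positive in muscle and 1 more negative, against 12.4% and 14.0% of all 18746 genes tested. The difference was 2.90 ± 0.30 on the log2 scale for Il6ra (adjusted p = 3.978e-05), 2.23 ± 0.43 for Socs3 (adjusted p = 0.002296), 1.23 ± 0.16 for Stat3 (adjusted p = 0.0001814), 1.11 ± 0.22 for Il4ra (adjusted p = 0.002701) and 0.93 ± 0.15 for Il6st (adjusted p = 0.0006065). Lifr, which fell in muscle and rose in the hypothalamus, had a difference of -1.16 ± 0.15 (adjusted p = 0.0001524). Each of these 6 calls held under every alternative run.

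For Osmr the difference was 0.39 ± 0.16 (adjusted p = 0.09725) and did not pass, with the rises of 2.79-fold in muscle and 2.10-fold in the hypothalamus standing side by side. It did pass with library totals (log2 0.58, adjusted p = 0.02533) and with TPM (log2 0.71, adjusted p = 0.003767), where the medians of all genes were 0.11 and 0.19. Jak1 was at -0.47 ± 0.17 (adjusted p = 0.05605) and Jak2 at -0.32 ± 0.13 (adjusted p = 0.0935), the last with opposite sign on TPM (log2 0.09, adjusted p = 0.7205). Pim1 was at 1.14 ± 0.47 (adjusted p = 0.09568), and with the mouse as a block, since both tissues came from the same mice, at 1.25 (adjusted p = 0.007775).

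**Figure D4:**
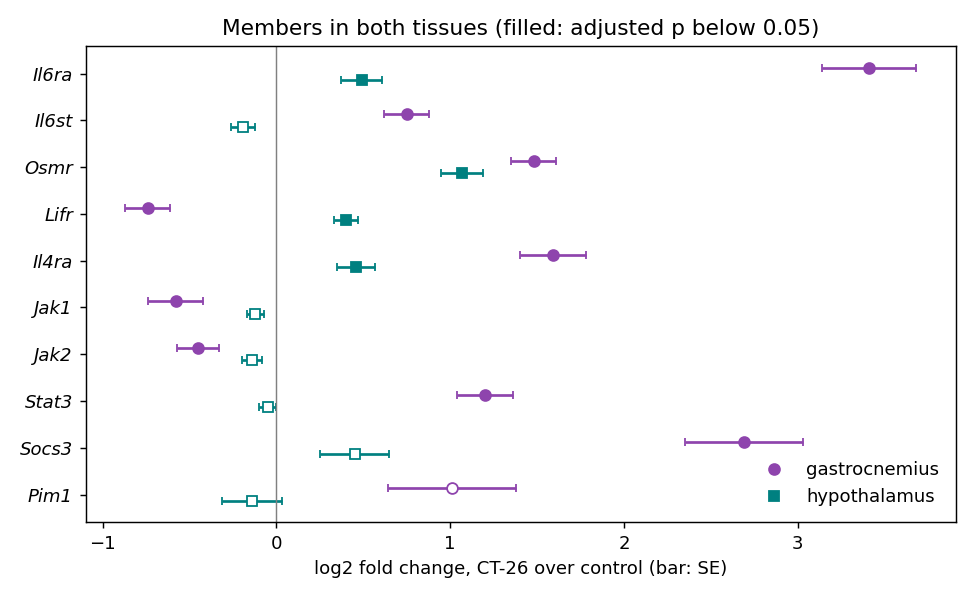
Log2 fold change, CT-26 over control, of each member in the gastrocnemius (circles) and the hypothalamus (squares), with bars for the SE and filled markers for an adjusted p below 0.05. Il6ra, Socs3, Il4ra, Stat3, Il6st and Pim1 lay further to the right in muscle, though the difference of Pim1 did not pass. Lifr was called on opposite sides of 0, and the markers of Osmr, at 1.48 and 1.07, were close together.

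The lengths of the transcripts in use were read from the abundance-weighted length that RSEM gives per gene and library. Between CT-26 and control muscle 0 of the 10 members had lengths that did not overlap, against 15.3% of genes with several transcripts, and in the hypothalamus this was 1, against 13.2%. That 1 was Pim1, at 2004, 2051 and 2059 bases in CT-26 and 2200, 2126 and 2208 bases in control hypothalamus (exact two-sided permutation p = 0.1, the smallest that 3 against 3 allows). Il6ra has 2 listed transcripts, of 3343 and 8639 bases, and its mean length in muscle was 5262, 5254 and 6087 bases in CT-26 and 5397, 5402 and 5683 bases in control mice. The groups overlapped in length (exact two-sided permutation p = 1.0, n = 3 each). Between the tissues, Il6st alone did not overlap, with 6346 to 7084 bases in the 6 gastrocnemius libraries and 8481 to 8678 bases in the 6 hypothalamus libraries, and 19.0% of genes with several transcripts did likewise. The longest listed Il6st transcript is 8678 bases long and the next 5207.

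Of the 10 members, 5 share exon bases with another listed gene on the opposite strand, and the strand setting of the counting is not given in the sources used here. These partners were low or small in overlap. Gm42809, antisense to Il6ra over 242 bases, was at 0.0769 to 0.421 CPM by library totals in CT-26 muscle and at 0 counts in control muscle, where 3 counts would be 0.094 to 0.109 CPM. Gm44876 (Il4ra) reached at most 0.0935 CPM and Gm26885 (Pim1) at most 0.916 CPM in any library. Raver2 shares 4 bases with Jak1, and Stat5a shares 72 with Stat3.

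The rest of the pathway was described by 71 further genes in 8 lists. In the gastrocnemius 55 passed the minimum count, of which 19 rose and 6 fell, with a median log2 change of 0.19, beside 19.6% and 18.3% of all genes tested. In the hypothalamus 60 passed, of which 7 rose and 4 fell, with a median of 0.10, beside 3.94% and 4.83% of all genes tested, so the number that fell was near the share over all genes. Of the ligands, few were readable in these tissues. Il6 had 5, 1 and 2 counts in CT-26 muscle and 0, 1 and 2 in control muscle, and 0 counts in all 6 hypothalamus libraries, where 3 counts, the limit that a count of 0 allows, are 0.0571 to 0.11 CPM. Osm had 7, 1 and 1 counts in CT-26 and 0, 1 and 1 in control muscle, and 3, 4 and 8 in CT-26 and 2, 1 and 1 in control hypothalamus. Il11 had 3, 3 and 4 counts in CT-26 and 1, 3 and 0 in control muscle, and 3, 9 and 17 in CT-26 and 17, 19 and 9 in control hypothalamus. These counts are too low to compare the groups. Lif had 1, 1 and 1 counts in CT-26 and 6, 7 and 7 in control muscle, under the minimum there, and 11, 8 and 25 counts in CT-26 and 21, 23 and 20 in control hypothalamus, where it did not pass the test. Of the 11 ligand genes Ctf1, encoding cardiotrophin-1, fell by 1.22 ± 0.23 on the log2 scale in muscle (adjusted p = 0.004704).

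Of 8 other receptors of the gp130 class, 5 were tested in muscle. Cntfr, the CNTF binding chain, fell by 3.20 ± 0.38 on the log2 scale in muscle, or 9.20-fold (adjusted p = 0.0007126), with 1.82, 4.26 and 3.74 CPM in CT-26 and 17.3, 37.5 and 33.9 CPM in control muscle. Each CT-26 value was less than any control value. Cntfr also fell by 0.21 ± 0.05 on the log2 scale in the hypothalamus (adjusted p = 0.02466), a call lost under 7 of the 15 alternatives, among them TPM (log2 -0.23, adjusted p = 0.07957), and without CT-26 mouse 2 or 3 or control mouse 2. Csf3r, the G-CSF receptor and itself one of the neutrophil markers, rose in muscle by 3.91 ± 0.59 (adjusted p = 0.001857). Il12rb1, a chain of the IL-12 and IL-23 receptors, rose in the hypothalamus by 1.36 ± 0.27 (adjusted p = 0.01353), a call lost without CT-26 mouse 1 or 3 (adjusted p = 0.05511 and 0.05033). Of the sheddases that cut cytokine receptors from the membrane, Adam17 fell by 0.81 ± 0.13 in muscle (adjusted p = 0.002258), and was not called with TPM (log2 -0.58, adjusted p = 0.08297).

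Among 8 further JAK and STAT genes, Jak3 rose in muscle (log2 1.13 ± 0.15, adjusted p = 0.001091), while 0 passed in the hypothalamus by edgeR or DESeq2, with 2 at an unadjusted p below 0.05. Of 15 SOCS, PIAS and phosphatase genes besides Socs3, 5 rose and 1 fell in muscle, and in the hypothalamus 0 passed by edgeR or DESeq2, with 2 at an unadjusted p below 0.05. Cish, a SOCS family member induced by STAT5, was at log2 1.68, the STAT-binding ligase gene Pias4 at 0.66, and the phosphatase genes Ptpn1 and Ptpn2, whose products dephosphorylate JAK proteins, at 0.53 and 0.51. Ptpn1 was not called with TPM (log2 0.42, adjusted p = 0.1625) or without control mouse 2 or 3 (adjusted p = 0.05034 and 0.0555). Both other PIM kinase genes rose in muscle, Pim3 by 1.57 ± 0.19 (adjusted p = 0.0007345) and Pim2 by 0.97 ± 0.25 (adjusted p = 0.016), a call lost without control mouse 1 or 2 (adjusted p = 0.06569 and 0.05549). In the hypothalamus Pim2 fell by 0.20 ± 0.05 (adjusted p = 0.0346), a call lost under 10 of the 15 alternatives, among them library totals (log2 -0.18, adjusted p = 0.05876), and without any 1 library but that of CT-26 mouse 1. Of 5 partners and ligands of Il4ra, 2 were tested in each tissue, where edgeR and DESeq2 called 0 and 1 in each had an unadjusted p below 0.05 in edgeR's test.

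Of 20 genes listed as STAT3 targets, 18 were tested in muscle, with 10 higher and 1 lower and a median log2 change of 1.14, and 19 in the hypothalamus, with 6 higher, 2 lower and a median of 0.19. Of all genes tested 19.6% were higher and 18.3% lower in muscle, and 3.94% and 4.83% in the hypothalamus. Cebpd, a transcription factor gene of the acute phase, had 307.9, 182.1 and 279.0 CPM in CT-26 and 12.1, 9.49 and 12.2 CPM in control muscle (log2 4.51 ± 0.24, adjusted p = 8.791e-05). In the hypothalamus Cebpd had 11.5, 8.40 and 10.0 CPM in CT-26 and 3.59, 3.93 and 3.34 CPM in control mice (log2 1.46 ± 0.14, adjusted p = 0.0003706). No group overlapped for Cebpd in either tissue. The cell cycle inhibitor Cdkn1a rose in muscle by 3.23 ± 0.24 (adjusted p = 0.0001623), and the protease inhibitor Serpina3n rose by 3.68 ± 0.34 in muscle (adjusted p = 0.0003221) and by 0.35 ± 0.07 in the hypothalamus (adjusted p = 0.01688). The hypothalamus call of Serpina3n was lost with TPM (log2 0.33, adjusted p = 0.06926), with the fit over all 12 libraries, and without control mouse 2 or 3 (adjusted p = 0.05267 and 0.05845). Lcn2, which encodes lipocalin-2, a siderophore-binding protein also stored in neutrophil granules, had 97.0, 19.8 and 69.3 CPM in CT-26 and 0.584, 0.440 and 0.675 CPM in control muscle (log2 6.77 ± 0.65, adjusted p = 0.0003579). In the hypothalamus Lcn2 had 37.5, 15.1 and 27.2 CPM in CT-26 and 0.0678, 0.0591 and 0.109 CPM in control mice (log2 8.36 ± 0.51, adjusted p = 1.813e-05). These control values lay at or below about 3 counts, which are 0.0871 to 0.108 CPM there, so the size of this change is uncertain. The adhesion molecule gene Icam1 rose there by 1.78 ± 0.19 (adjusted p = 0.000606). Several of these genes are known as targets of other factors as well, and the share of STAT3 in the changes was not tested.

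**Figure D5:**
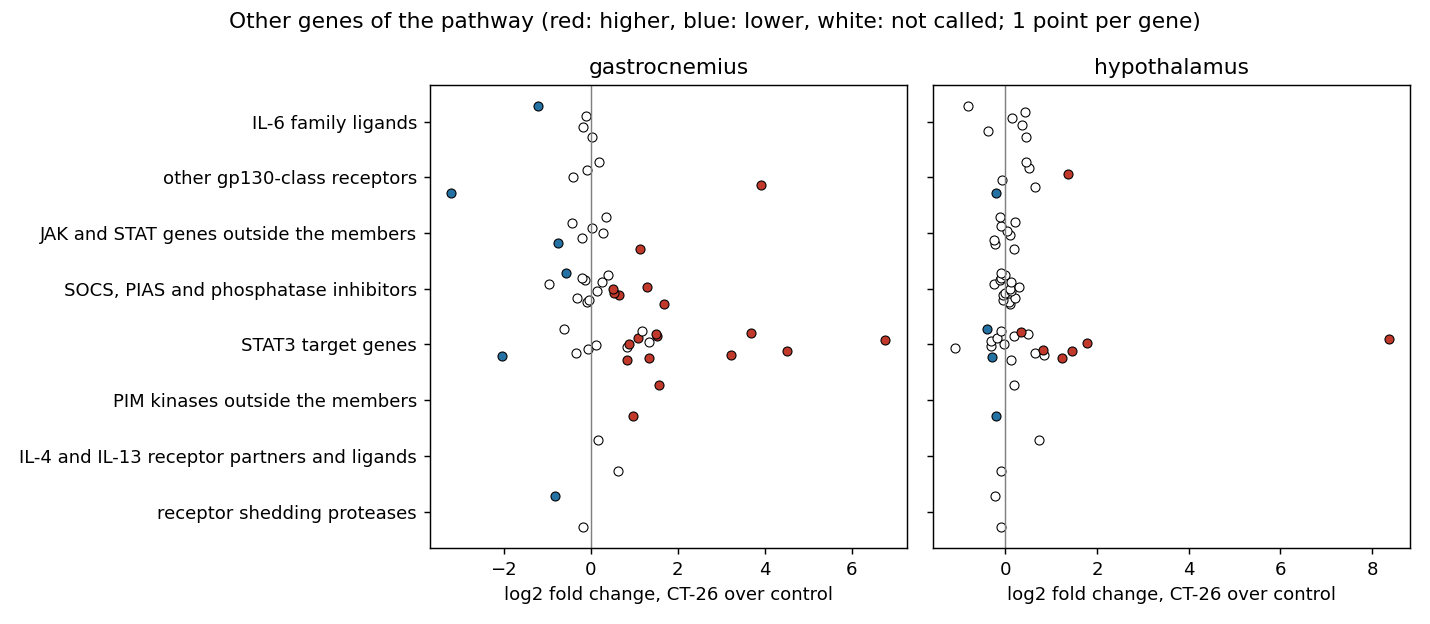
Log2 fold change, CT-26 over control, of each tested gene of the 8 pathway lists in the gastrocnemius (left) and the hypothalamus (right), with 1 point per gene, red for higher, blue for lower and white for not called. Of the tested genes 25 were called in muscle and 11 in the hypothalamus, and Lcn2, at 6.77 and 8.36, was the rightmost point in both. Its value in the hypothalamus rests on control libraries with about 3 counts or fewer.

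The genes whose pattern over the 12 libraries was most like that of a member were taken from those with the smallest root mean square difference of centred log2(TPM + 0.5) among 12381 genes. For Il6ra these were Vegfd (0.29), Galnt15 (0.34) and Cep85l (0.37), for Osmr Tmem252 (0.13) and Kxd1 (0.24), and for Socs3 Psma7 (0.34), Traf3ip2 (0.34) and Paox (0.36), in log2 units. Tmem252 was at log2 1.73 in muscle and 1.66 in the hypothalamus, CT-26 over control, beside 1.48 and 1.07 for Osmr. Vegfd was at 4.02 and 0.69, beside 3.41 and 0.49 for Il6ra. The libraries of a tissue share their tissue and condition, so likeness over them is a description.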

How the data were processed

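The values are RNA-seq gene tables of 12 libraries, 6 per tissue, made with a directional MGIEasy kit and read as 100-base pairs on an MGISEQ-2000, per the labels' protocols. The submitters' processing notes name RSEM (1.3.3), STAR (2.7.9a) and Trim Galore (0.6.6), with the build GRCm38. The annotation release was not given in the sources used here. The deposited expected counts are RSEM's estimates of fragments per gene and need not be whole. The deposited TPM values are RSEM's, per the file headers, and so are the transcript lengths. Names and coordinates were taken from GENCODE M21, which named 52135 of 55416 identifiers.

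Expected counts were rounded. Each tissue was fitted on its 6 libraries with edgeR 4.0.16 in R 4.3.3 (filterByExpr, TMM, glmQLFit and glmQLFTest, Benjamini-Hochberg over all genes, called at an adjusted p below 0.05), and the difference between tissues on all 12. The standard error of a log2 fold change comes from the test statistic. The scripts were tested on simulated counts. Alternatives used other scalings and filters, DESeq2 1.42.0, limma 3.58.1 on log2(TPM + 0.5) and log2(TPM + 0.1), blocks, and each library left out. Replicates are separate numbered mice, and chi-square per gene between replicates of a group (6.29 to 179) showed no library deposited more than once within a group. Libraries of different groups were not compared in this way. Replicate numbers within a tissue name different mice and pair nothing. The mouse number pairs the tissues of 1 mouse by label, and the deviations of such pairs correlated at -0.127 to 0.207.

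The members and gene lists were chosen with earlier results of these data known. Named are all 10 members, up to 4 called genes of smallest p per pathway list and tissue (examples chosen from these), the ligands Il6, Il11, Lif and Osm, and the 3 genes most like Il6ra, Osmr and Socs3. A pair of genes that this rule names is not reported here. Total counts limit low genes, and count limits cover counting error only.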

Additional observations from a re-analysis of the deposited data

Results flagged for a closer look

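The effect of CT-26 tumours differed between gastrocnemius and hypothalamus for 6 members, by the test of the difference itself (edgeR, gastrocnemius effect minus hypothalamus effect, log2). The difference was 2.90 for Il6ra, with all 3 CT-26 mice above all 3 controls in both tissues. It was 2.23 for Socs3, with every CT-26 mouse above every control in both tissues but a pass in muscle alone. It was 1.11 for Il4ra, which rose in both. It was 1.23 for Stat3, whose groups overlapped in the hypothalamus, and 0.93 for Il6st, where the 3 CT-26 mice were above the controls in muscle and below them in the hypothalamus. Lifr had -1.16, and in CPM it was lower in all 3 CT-26 mice in muscle and higher in all 3 in the hypothalamus. What sets the tissues apart was not tested.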

How the results depend on the processing

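In muscle the 6 members called higher were 6 to 7 and the 3 called lower 1 to 3 when 1 library was left out. The count lower was 1 with library totals and 0 with TPM at either pseudocount. In the hypothalamus the 4 called higher were 2 with TPM at either pseudocount, 1 with the fit over all 12 libraries, and 2 to 4 with 1 library left out, and the 0 called lower was 1 without a low count filter (Il6st) and 0 with any library left out. Pathway genes called lower in muscle (6) were 3 with TPM at either pseudocount and 12 with all 12 libraries. In the hypothalamus those higher (7) were 13 without the filter and 4 with TPM or all 12 libraries. Those lower (4) were 8 without the filter, 0 with TPM or all 12 libraries, and 1 to 8 with 1 library left out. Members without overlap in transcript length were 0 to 2 in muscle and 1 to 3 in the hypothalamus with 1 library left out. With fewer libraries, groups overlap less readily, and the share over all genes was not computed for that setting, so these counts cannot be read further. Reversed signs were those of Jak2 in the difference between tissues (0.09 and 0.10 with TPM) and Pim1 in the hypothalamus (-0.28 to 0.06 with 1 library left out, 0.06 being the value without control mouse 2). The cause of these changes was not tested.

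A replicate block within a tissue, whose numbers pair nothing, brought Pim1 in muscle to 1.18 (adjusted p = 0.0182), Il6ra in the hypothalamus to an adjusted p of 0.05609, and the pathway genes lower there to 2. The mouse as block changed, among the members, the call of Pim1 only. With 3 mice a group, small changes in the hypothalamus rest on few values.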
